A study of Mus musculus with 72 samples.

Results

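The comparison set lung tumours against lung tissue of mice that had received the CMV-siRE circuit, with 4 libraries of each, 8 of the 72 libraries of the series. All mice, the controls of the series included, carried the EGFR DEL19 transgene, a human epidermal growth factor receptor with a deletion that keeps it active, and were given doxycycline to switch it on. CMV-siRE is a DNA circuit under the CMV promoter that makes host cells produce an siRNA against EGFR. It was injected intravenously at 10 mg/kg, 7 times at intervals of 2 days, and the tissues were taken on day 14. For the other circuits, CMV-scrR carries a scrambled RNA as the control, and CMV-GE11-siRE adds GE11, a peptide that binds EGFR, to the siRNA. The libraries were chosen by their labels and by the matching columns of the tumour and lung tables. The labels call them tumour tissue and lung tissue and say no more, so which lung region was sampled is unknown. They do not say that the libraries come from separate animals, and the p-values below therefore measure the spread between these samples.

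As background, oncogenic EGFR in the lung drives tumours that mostly resemble alveolar type 2 cells, the surfactant-making cells of the air sacs. Its signal runs through the MAP kinase cascade to transcription factors of the ETS family, and it induces both ligands of its own receptor family and feedback inhibitors. Normal lung is made of thin alveolar type 1 cells, type 2 cells, airway club and ciliated cells, a dense capillary bed, fibroblasts and many immune cells. A bulk library mixes all of these, and fewer cells of a type cannot be told apart from less RNA per cell.

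Every value is given in parts per 1000000 (ppm) of the library's total over mouse genes other than those with mitochondrial (mt-) symbols, since the authors had scaled the tumour and the lung table apart. Differences are tumour minus lung in log2(value + 1), with their standard error (SE), and were called when the limma p-value, adjusted by Benjamini-Hochberg over all 14699 genes tested, was below 0.05.

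What set the tumour libraries apart before any gene was compared was their mitochondrial RNA. Mitochondrial genes took 45.0%, 61.3%, 73.2% and 61.0% of the column total in tumour replicates 1 to 4 (mean 60.1% ± 11.6, SD, n = 4). In the lungs they took between 2.23% and 2.51% (mean 2.38% ± 0.147, SD, n = 4). The groups did not overlap (p = 0.0286, exact permutation test, two-sided, which can go no lower with 4 libraries a group). A further part of the tumour libraries lay in nuclear genes whose transcripts match a mitochondrial one over at least 100 bases at 85% identity or more. These copies took 14.0%, 30.4%, 46.5% and 28.7% of the non-mitochondrial total in the tumours and 0.330% ± 0.0723 (mean, SD, n = 4) in the lungs (exact permutation p = 0.0286). Together, mitochondrial genes and copies made up 70.9% ± 13.6 of the tumour and 2.70% ± 0.206 of the lung column totals. The smallest sum was that of tumour replicate 1, at 52.7%, and the largest that of tumour replicate 3, at 85.7%.

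**Figure D1:**
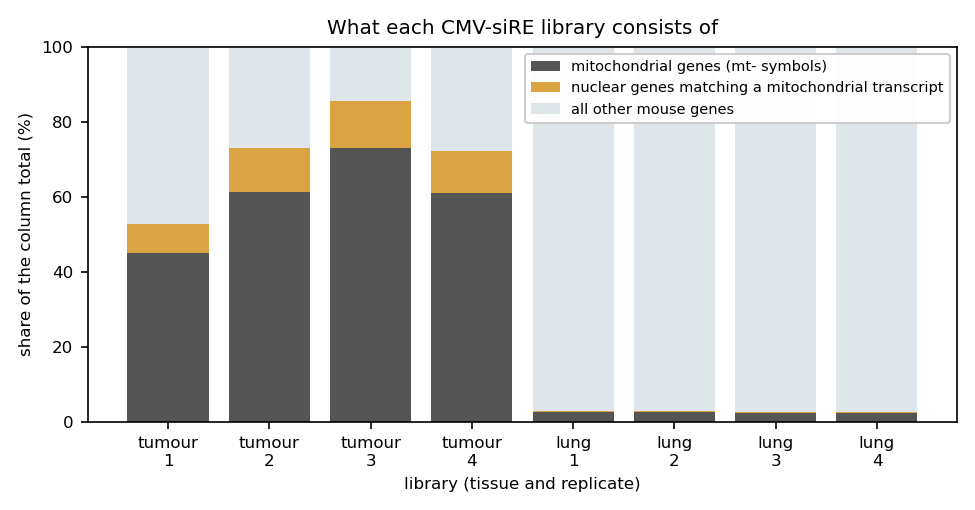
Share of the column total, in percent, of mitochondrial genes (dark), nuclear genes that match a mitochondrial transcript (yellow) and all other mouse genes (pale) in the 8 CMV-siRE libraries. Mitochondrial genes take 45.0% to 73.2% in the tumours and 2.23% to 2.51% in the lungs.

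Of these copies, 5 lie side by side on the minus strand of mouse chromosome 1, at chr1:24612775-24616197 in GRCm38, a stretch of 3423 bases annotated as unprocessed pseudogenes. They match mt-Co1, mt-Co2, mt-Atp6, mt-Co3 and mt-Nd3, neighbours on the mitochondrial chromosome that encode subunits of cytochrome oxidase, ATP synthase and complex I. Their sequences are shown because reads from them and from the mitochondrial genes can hardly be told apart. Each of the following pairs shows the same 90 bases of the GENCODE M21 transcripts, with differing bases in capitals.
mt-Co2 (chrM:7103-7192, plus strand): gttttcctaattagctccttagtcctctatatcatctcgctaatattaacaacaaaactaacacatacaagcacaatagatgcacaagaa
Gm28661 (chr1:24615386-24615475, minus strand): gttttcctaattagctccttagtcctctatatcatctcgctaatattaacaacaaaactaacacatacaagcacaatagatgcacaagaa
mt-Nd3 (chrM:9459-9548, plus strand): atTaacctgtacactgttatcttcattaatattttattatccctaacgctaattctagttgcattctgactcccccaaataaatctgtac
Gm28438 (chr1:24613030-24613119, minus strand): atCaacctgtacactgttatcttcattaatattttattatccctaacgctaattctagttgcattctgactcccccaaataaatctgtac
mt-Rnr2 (chrM:1894-1983, plus strand): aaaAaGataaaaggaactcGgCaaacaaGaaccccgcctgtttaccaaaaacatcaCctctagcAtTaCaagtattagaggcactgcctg
Gm20594 (chr6:79818075-79818164, plus strand): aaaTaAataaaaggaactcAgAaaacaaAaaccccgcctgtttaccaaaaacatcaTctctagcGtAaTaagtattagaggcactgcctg
Gm28661 equals mt-Co2 over all 681 of its bases, and Gm28438 differs from mt-Nd3 at 1 of 345. Gm20594, on chromosome 6, is a more distant relative of the mitochondrial 16S ribosomal RNA, with 9 differences in the 90 bases shown.

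All 13 mitochondrial genes in the tables were higher in the tumours. The copies and mitochondrial genes named here were chosen after their values were seen. mt-Co1, the catalytic core of cytochrome oxidase, had 297400, 634900, 1046000 and 690200 ppm in tumour replicates 1 to 4 and 8745 to 9444 in the lungs (6.04 ± 0.82, limma adjusted p = 0.00036). Gm28661 had 97160, 190600, 317800 and 191100 in the tumours and 1786 to 2483 in the lungs (6.51 ± 0.54, adjusted p = 2.8e-05). In both, replicate 3 was the highest tumour and replicate 1 the lowest, and no lung came near a tumour. Gm28438 had 7377 to 23480 in the tumours and 0 to 4.61 in the lungs, and Gm29216, the copy of mt-Co1, 14390 to 39920 against 0 to 343. Gm20594 had 3187, 7174, 8069 and 4340 in the tumours and 66.9 to 101 in the lungs (6.04 ± 0.32, adjusted p = 2.7e-06). Lars2, the nuclear gene of mitochondrial leucyl-tRNA synthetase, had 21130, 4914, 57680 and 13400 in the tumours and 698 to 1092 in the lungs (4.22 ± 0.65, adjusted p = 0.00066). No annotated transcript of Lars2 matched a mitochondrial transcript at those limits.

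Other near-identical pairs were split differently in the 2 tables. The pair shown is Hmga1, a chromatin protein gene on chromosome 17, and its copy Hmga1b on chromosome 11, in 90 bases of the spliced GENCODE M21 transcripts with the differing base in capitals.
Hmga1 (within chr17:27559667-27561462, plus strand, spliced): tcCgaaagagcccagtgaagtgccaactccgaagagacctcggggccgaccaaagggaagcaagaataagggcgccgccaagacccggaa
Hmga1b (chr11:120763020-120763109, plus strand): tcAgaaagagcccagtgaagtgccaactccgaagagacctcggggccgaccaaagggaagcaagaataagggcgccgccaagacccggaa
Of the summed value of Hmga1 and Hmga1b, the copy held 71.4% to 84.5% in the tumours and 0% to 0.83% in the lungs. The sum itself was 45.6 ± 5.05 in the tumours and 49.99 ± 8.44 in the lungs (SD, n = 4), a difference within the spread. Rps2, which encodes a ribosomal protein, was the most strongly lowered gene under the naming rule, at -7.55 ± 0.42. Yet Rps2 and its pseudogene Rps2-ps10 summed to 945 ± 221 in the tumours and 653 ± 140 in the lungs, with 99.2% to 99.9% of the tumour sum and 0.214% to 0.269% of the lung sum in the pseudogene. Eno1, an enzyme of glycolysis, and its copy Eno1b summed to 168 ± 12.7 in the tumours and 258.5 ± 48.5 in the lungs. Hmga1, Rps2-ps10 and Eno1 were chosen after their values were seen. Among genes with more than 50% of their 50-base windows shared with another gene, 19.4% were called higher in the tumours, and among genes with at most 1% shared, 4.04%. The tissue and the way each table was made cannot be told apart for such genes. Genes with over 10% of shared windows are uncertain for the same reason.

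Across all genes the tumours were lower far more often than higher. Of the 14699 genes tested, 7982 (54.3%) were called, 795 higher in tumour (5.41%) and 7187 lower (48.9%), with a median difference of -0.78. All 4 libraries of one tissue lay above all 4 of the other in 7593 genes (51.7%). The balance depended on the scaling, because the copies count in the total and push every other tumour value down. When the copies were left out of the total as well, 1810 genes were higher (12.3%) and 4239 lower (28.8%), and the median was -0.32. Scaled by the median ratio between libraries, 2524 were higher and 3328 lower, with a median of -0.09. Scaled by the whole column total, mitochondrial genes included, 174 were higher and 13025 lower, with a median of -1.84. The 795 genes called higher and 3328 of those called lower (22.6% of the genes tested) had the same call under the first 3 of these scalings. Leaving out the copies and the median ratio both raise the tumour values against the first scaling. Keeping a higher call under them is therefore no further test, and only the lower calls were narrowed. For higher calls the whole column total is the stricter scaling, with 174. Such genes are described below as called under 3 scalings.

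**Figure D2:**
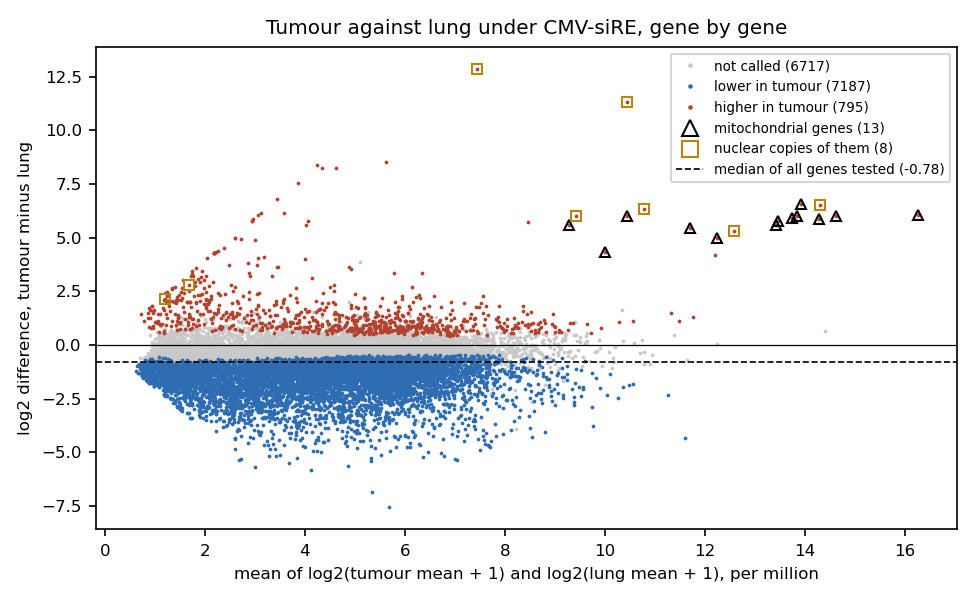
Log2 difference of tumour minus lung (vertical axis) against the mean level of each of the 14699 genes on the log2(ppm + 1) scale (horizontal axis), with called genes in red and blue, mitochondrial genes as triangles and their nuclear copies as squares. The cloud centres on -0.78 (dashed line), and the mitochondrial genes and their abundant copies stand above it.

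The tumour libraries were less alike than the lungs. Pearson correlations between pairs of libraries on the log2 scale were 0.881 to 0.941 within the tumours, 0.979 to 0.990 within the lungs and 0.742 to 0.862 between them. Tumour replicates 2 and 4 carried Ddx3y, a Y-linked gene, at 54.6 and 41.9 ppm, and tumour replicates 1 and 3 had 0.131 and 0.492. None of the lungs had it above 1 ppm. Without replicates 2 and 4, 627 genes were higher and 6859 lower. Values above 0 were found for 15522 to 18004 genes in a tumour and for 19915 to 20241 in a lung.

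**Figure D3:**
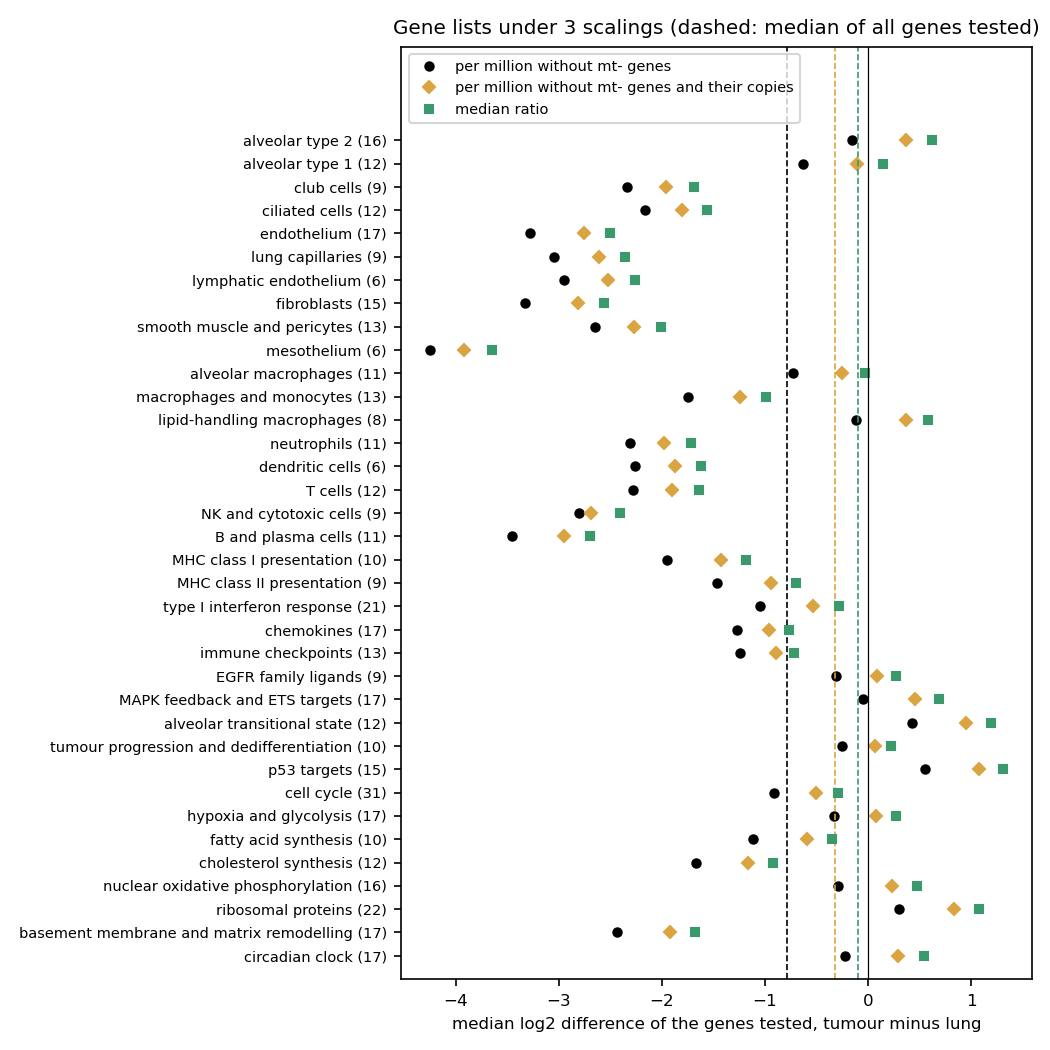
Median log2 difference of tumour minus lung over the tested genes of each list (their number in brackets) under 3 scalings, with the median of all genes tested under each scaling as a dashed line. Endothelial, fibroblast, mesothelial and lymphocyte lists lie left of the dashed lines, and the p53 target, transitional state and ribosomal lists lie right of them, under all 3 scalings shown.

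Alveolar type 2 genes were present in the tumours at widely spread levels. Of the 16 markers tested, 2 were called higher and 2 lower, beside 5.41% and 48.9% of all genes. The median was -0.16 against -0.78 over all genes. It was 0.37 without the copies in the total, with 3 higher and 1 lower. Sftpc, the surfactant protein that defines these cells, had 89070, 12490, 10540 and 19590 in tumour replicates 1 to 4 and 10900 to 16620 in the lungs (0.65 ± 0.71, limma adjusted p = 0.45). Tumour replicate 1 exceeded every lung several-fold, and the others lay in or near the range of the lungs. Sftpa1, another surfactant protein, followed the same order of replicates, with 6633, 1495, 777 and 2715 against 3232 to 3752 in the lungs (-0.70 ± 0.57, adjusted p = 0.32). S100g, a calcium-binding protein of type 2 cells, had 320, 68.0, 93.1 and 80.3 in the tumours and 27.5 to 35.6 in the lungs (1.82 ± 0.43, adjusted p = 0.0063). Its call under 3 scalings is no further test of a rise. Il33, an alarmin stored in the nucleus, had 79.4, 122, 165 and 138 in the tumours and 55.1 to 91.9 in the lungs (0.83 ± 0.26, adjusted p = 0.022). Its groups overlapped at tumour replicate 1 alone, and the call was lost when tumour replicate 4 or lung replicate 1, 2 or 4 was left out. Lpcat1, which remodels surfactant lipid, had 388, 259, 92.1 and 248 against 399 to 548 (-1.05 ± 0.38, adjusted p = 0.04), and its call was lost when the copies were left out of the total (-0.53). Lyz1, a lysozyme uncertain for its near copy Lyz2, fell to 1.56, 52.6, 3.39 and 84.7 from 258 to 372 (-4.39 ± 1.00, adjusted p = 0.0052).

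Alveolar type 1 markers gave a mixed picture, with 4 of 12 called lower and none higher (median -0.63, or -0.10 with 3 lower when the copies were left out). Over all genes 48.9% were called lower and 5.41% higher. Under 3 scalings 2 of the markers were lower, beside 22.6% of all genes. Ager, the receptor for advanced glycation end products on type 1 cells, had 1656, 1127, 454 and 3288 in the tumours and 1344 to 1978 in the lungs (-0.39 ± 0.52, adjusted p = 0.54). The lowest and the highest of the 8 values were both tumours. Igfbp2, which binds insulin-like growth factors, had 10.8, 11.8, 1.08 and 49.0 in the tumours against 156 to 246 in the lungs (-4.24 ± 0.76, adjusted p = 0.0015). Pdpn, a surface glycoprotein of type 1 cells, had 13.8, 15.5, 4.66 and 65.4 against 59.0 to 87.3 (-2.14 ± 0.60, adjusted p = 0.014). Replicate 4 lay among the lungs for Pdpn and below all of them for Igfbp2. Clic5 was called lower at -1.09 ± 0.39 (adjusted p = 0.037), but not without the copies in the total (-0.56).

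Airway genes were low. Of 9 club cell markers, 6 were called lower and 1 higher (median -2.34), and of 12 markers of ciliated cells 11 were lower and none higher (median -2.17). With the copies left out of the total, 6 and 7 were lower. Scgb1a1, the main secretory protein of club cells, had 91.5, 2411, 264 and 1026 in the tumours and 7555 to 14100 in the lungs (-4.33 ± 0.86, adjusted p = 0.0025). Cyp2f2, a cytochrome of club cells that activates naphthalene, had 75.6, 224, 18.1 and 74.8 against 1122 to 1542 (-4.29 ± 0.60, adjusted p = 0.0004). Foxj1, the master regulator of motile cilia, had 0.842, 54.9, 0.904 and 6.29 against 64.02 to 102 (-3.65 ± 0.93, adjusted p = 0.0086). Dnah5, a dynein of the ciliary outer arm, had 0, 10.1, 0 and 2.30 against 23.4 to 26.7 (-3.39 ± 0.68, adjusted p = 0.0027). For Scgb1a1, Cyp2f2, Foxj1 and Dnah5 alike, replicate 2 was the highest tumour, and every tumour lay below every lung. The summed ciliated markers ran from 53.04 to 380.5 in the tumours and from 547 to 841 in the lungs. How much airway each lung or tumour sample held was not tested.

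**Figure D4:**
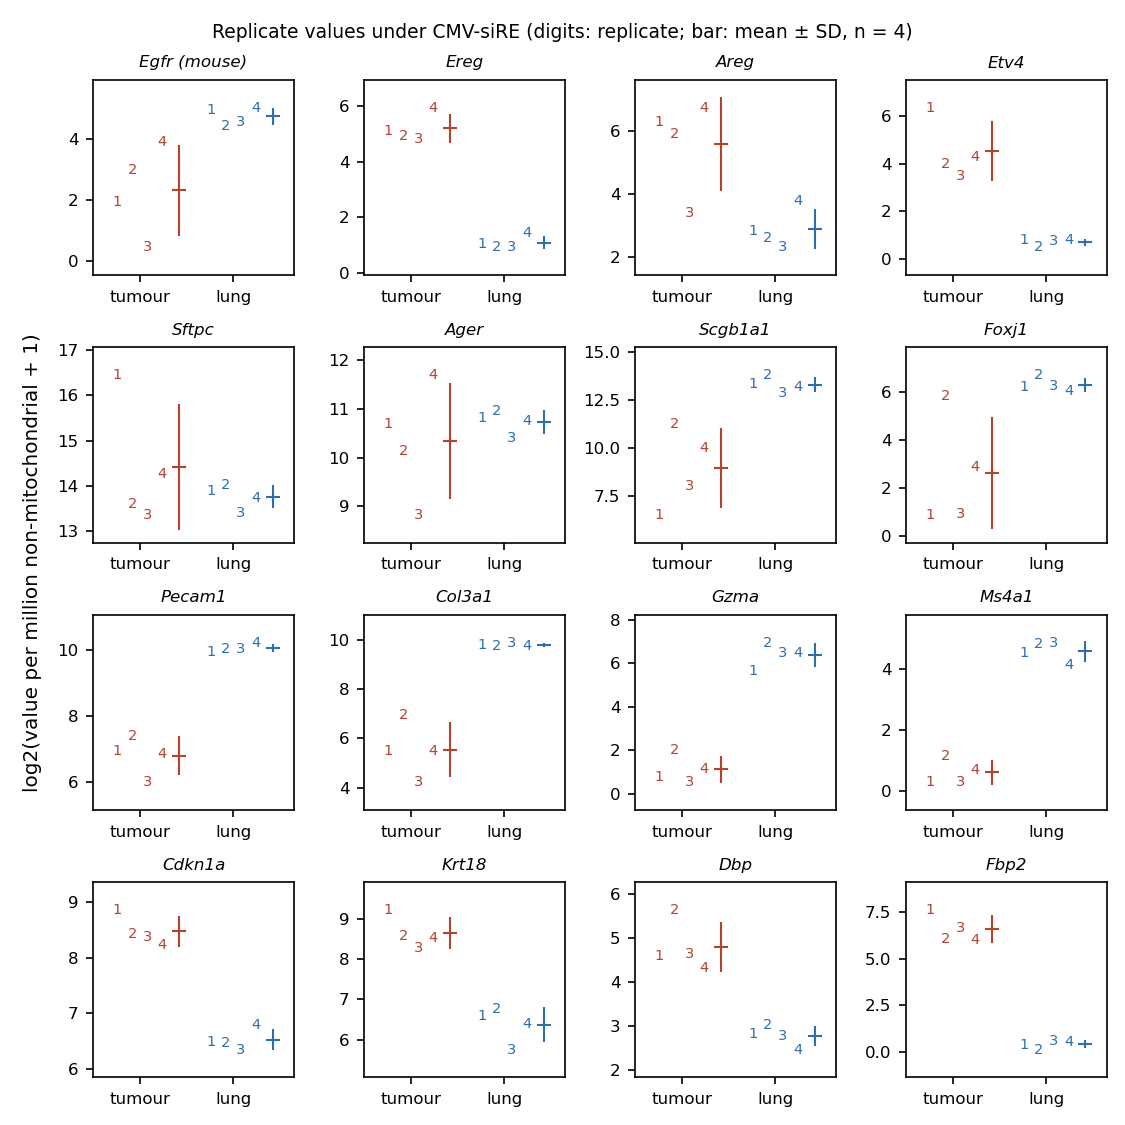
Level of 16 genes on the log2(ppm + 1) scale in each replicate (digits) of tumour (red) and lung (blue), with the mean ± SD (n = 4). Ereg, Etv4, Cdkn1a, Krt18, Dbp and Fbp2 lie higher in every tumour than in every lung, while Egfr, Scgb1a1, Foxj1, Pecam1, Col3a1, Gzma and Ms4a1 lie lower.

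Blood vessel genes were among the most uniformly lowered groups. Of 17 endothelial markers 16 were called lower and none higher, with a median of -3.28, and of 9 capillary markers all 9 were lower (median -3.05). Under 3 scalings 14 and 9 were lower. Pecam1, an adhesion protein of endothelial cells, had 123, 167, 62.4 and 113 in the tumours and 992 to 1202 in the lungs (-3.28 ± 0.28, adjusted p = 3.4e-05). Tek, the receptor for angiopoietins, had 12.9, 20.6, 5.37 and 13.4 against 378 to 533 (-5.21 ± 0.34, adjusted p = 7.3e-06). Kit, which marks general capillary cells in lung, had 9.43, 18.8, 1.63 and 8.06 against 233 to 267 (-4.93 ± 0.50, adjusted p = 7.9e-05). Replicate 3 was the lowest tumour for Pecam1, Tek and Kit, and every tumour lay below every lung. All 6 lymphatic markers were lower as well, with Lyve1, the hyaluronan receptor of lymph vessels, at -5.18 ± 0.75 (adjusted p = 0.00049) and Flt4, the receptor for VEGF-C, at -3.54 ± 0.27 (adjusted p = 1.8e-05). The summed endothelial markers were 368 to 1522 in the tumours and 8201 to 9387 in the lungs.

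Connective tissue was lower as well. All 15 fibroblast markers were called lower (median -3.33), 14 of them under 3 scalings. Col3a1, a fibrillar collagen, had 43.3, 123, 17.7 and 43.6 in the tumours and 848 to 942 in the lungs (-4.25 ± 0.46, adjusted p = 0.00011). Eln, the elastin of alveolar walls, had 192, 128, 49.7 and 51.6 against 815 to 1004 (-3.33 ± 0.41, adjusted p = 0.00021). Col13a1, which marks alveolar fibroblasts, had 1.79 to 5.19 against 76.8 to 87.5 (-4.30 ± 0.26, adjusted p = 6.1e-06). Those collagen and elastin genes separated the tissues fully. Of 13 markers of smooth muscle and pericytes, 12 were lower and 1 higher. Myh11, the smooth muscle myosin, was at -4.02 ± 0.53 (adjusted p = 0.0003) and Pdgfrb, the pericyte receptor for PDGF, at -3.08 ± 0.52 (adjusted p = 0.0011). The higher one was Rgs5, with means of 31.3 in the tumours and 7.88 in the lungs (1.58 ± 0.51, adjusted p = 0.024) and overlapping groups. Mesothelium, the lung's outer lining, had the lowest median of the 48 lists, -4.25, with 5 of 6 markers lower. Msln, mesothelin, had 0.984, 7.71, 0.617 and 5.63 against 42.3 to 88.0 (-4.07 ± 0.56, adjusted p = 0.00037), and Upk3b 0.241 to 1.81 against 36.4 to 94.2 (-5.11 ± 0.38, adjusted p = 1.6e-05). Of 17 genes of basement membrane and matrix remodelling 14 were lower and none higher (median -2.44).

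Most lymphocyte markers were lower in the tumours. All 11 markers of B and plasma cells were called lower (median -3.45), all 9 of NK and cytotoxic cells (median -2.80) and 10 of 12 of T cells (median -2.29), of which 8, 9 and 9 were lower under 3 scalings. Ms4a1, the CD20 antigen of B cells, had 0.239, 1.22, 0.225 and 0.610 in the tumours and 16.4 to 28.25 in the lungs (-3.98 ± 0.29, adjusted p = 1.4e-05). Gzma, a granzyme of cytotoxic cells, had 0.730, 3.02, 0.458 and 1.24 against 48.8 to 123 (-5.26 ± 0.38, adjusted p = 1.4e-05). Prf1, the pore protein of killer cells, had 0.234 to 1.04 against 17.0 to 28.8 (-3.93 ± 0.27, adjusted p = 1.2e-05). Every tumour lay below every lung for Ms4a1, Gzma and Prf1. Cd8a, a co-receptor of cytotoxic T cells, had 1.64, 2.85, 0.637 and 2.26 against 14.7 to 38.2 (-3.07 ± 0.38, adjusted p = 0.00021), and Cd3e, part of the T cell receptor complex, 0.218 to 6.42 against 13.2 to 27.6 (-2.69 ± 0.54, adjusted p = 0.0027).

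Myeloid lists differed among themselves. Of 13 markers of macrophages and monocytes 11 were called lower (median -1.75), beside 48.9% of all genes. With the copies left out of the total 9 were lower, and under 3 scalings 7, beside 28.8% and 22.6% of all genes. Of 11 neutrophil markers 6 were lower (median -2.31), near the 48.9% of all genes called lower. The neutrophil markers S100a8, S100a9, Retnlg, Camp and Mmp8 were not called. Of 8 markers of lipid-handling macrophages 1 was lower and none higher (median -0.12). Csf1r, the receptor for the macrophage growth factor, had 22.1, 28.6, 17.5 and 34.6 in the tumours and 234 to 334 in the lungs (-3.50 ± 0.24, adjusted p = 1e-05). Adgre1, a surface receptor of macrophages, had 2.88, 9.80, 12.4 and 6.12 against 72.1 to 82.3 (-3.30 ± 0.36, adjusted p = 0.00011). Both separated the tissues. Alveolar macrophage markers were divided, with 3 of 11 lower and 1 higher, beside 48.9% and 5.41% of all genes. The higher one, Atp6v0d2, a subunit of the lysosomal proton pump, had 63.9, 132, 214 and 148 against 22.0 to 33.1 (2.30 ± 0.34, adjusted p = 0.00054). Ear2, an eosinophil-type ribonuclease with 41.5% of its windows shared with other genes, had 0.226 to 1.39 against 51.2 to 78.7 (-5.14 ± 0.28, adjusted p = 3.4e-06). Chil3, a chitinase-like protein with 26.9% shared windows, had 97.1, 181, 437 and 330 against 342 to 729 and was not called (-0.997 ± 0.45, adjusted p = 0.083). Ccl6, a chemokine of macrophages, was the 1 chemokine of 17 called higher, at 248, 557, 1142 and 664 against 124 to 240 (1.81 ± 0.42, adjusted p = 0.0057), while 12 were lower. Over all genes 5.41% were higher and 48.9% lower. Under 3 scalings 5 chemokines were lower, beside 22.6% of all genes. Among neutrophil genes, Mmp9, a gelatinase, fell by 4.43 ± 0.51 (adjusted p = 0.00015), and S100a8, a calgranulin, had 11.9, 4.18, 12.7 and 292 against 37.6 to 204 (-1.96 ± 1.07, adjusted p = 0.14). Replicate 4 alone was high for S100a8. That tumour also held most red cell RNA, with erythroid markers summing to 32560, against 106 to 3932 in the other tumours and 939 to 1690 in the lungs.

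Genes of antigen display were lower too. Of 10 genes of MHC class I presentation 9 were called lower (median -1.95) and of 9 of class II 7 (median -1.47), with 7 and 4 under 3 scalings. H2-K1, a classical class I heavy chain, had 571, 361, 102 and 335 in the tumours and 1885 to 2476 in the lungs (-2.89 ± 0.45, adjusted p = 0.00076). Tap1, which pumps peptides into the endoplasmic reticulum, had 46.3, 38.4, 5.19 and 45.2 against 164 to 214 (-2.82 ± 0.58, adjusted p = 0.003). Cd74, the class II invariant chain, had 3213, 1265, 579 and 1132 against 2010 to 2689 and was not called (-0.86 ± 0.46, adjusted p = 0.13). Tumour replicate 1 exceeded all lungs for Cd74 and none for H2-K1 or Tap1. Cd274, the checkpoint ligand PD-L1, had 18.0, 23.1, 15.8 and 18.4 against 35.9 to 55.4 (-1.24 ± 0.22, adjusted p = 0.0013), a fall no longer called under the median ratio (-0.49). Of 13 checkpoint genes 9 were lower and none higher, beside 48.9% of all genes called lower. Of 21 interferon response genes 14 were lower and 1 higher. With the copies left out of the total 6 were lower, near the 28.8% of all genes called lower in that scaling.

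Within the EGFR family, human EGFR, the transgene, was read from the tumour table, and a lung value is not analysed here. It had 133, 61.6, 61.0 and 168 ppm in the CMV-siRE tumours. Mouse Egfr (chr11:16752203-16918158, plus strand, protein-coding) had 2.82, 6.95, 0.365 and 14.0 in the tumours and 20.7 to 31.5 in the lungs (-2.42 ± 0.62, adjusted p = 0.0091). Each tumour lay below each lung, and the call held under 3 scalings. The partner receptors Erbb2 and Erbb3 were not called, at -0.31 ± 0.59 (adjusted p = 0.67) and -0.39 ± 0.47 (adjusted p = 0.49). For both, tumour replicate 1 was above all lungs and tumour replicate 3 below them.

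Ligands of the family went both ways, with 2 of 9 called higher and 4 lower, beside 5.41% and 48.9% of all genes. Ereg, epiregulin (chr5:91074622-91093646, plus strand), had 33.3, 29.8, 27.3 and 60.7 in the tumours and 0.891 to 1.70 in the lungs (4.12 ± 0.30, adjusted p = 1.4e-05). Areg, amphiregulin, had 76.9, 59.5, 9.49 and 106 against 3.93 to 12.6 (2.71 ± 0.66, adjusted p = 0.0072). Ereg separated the tissues by over 10-fold, while for Areg tumour replicate 3 lay within the lungs. Both rises were called under 3 scalings, which is no further test of a rise. Without tumour replicates 2 and 4, Ereg was at 3.88 (adjusted p = 0.000145) and Areg at 1.96 (adjusted p = 0.0788). Hbegf, the heparin-binding ligand, had 35.6, 28.1, 13.9 and 36.1 against 48.8 to 66.1 (-1.12 ± 0.30, adjusted p = 0.011), a call lost when the copies were left out (-0.61). Nrg1, neuregulin 1, which binds Erbb3, had 0 to 1.95 against 4.15 to 7.78 (-1.997 ± 0.34, adjusted p = 0.0013).

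Of 17 MAP kinase feedback genes and ETS targets, 3 were called higher and 4 lower, beside 5.41% and 48.9% of all genes (median -0.05, beside -0.78). With the copies left out of the total 7 were higher and 4 lower, beside 12.3% and 28.8% of all genes (median 0.46, beside -0.32). Etv4 (chr11:101769742-101785371, minus strand), an ETS factor induced by MAP kinase signalling, had 80.2, 14.7, 10.3 and 18.6 in the tumours and 0.404 to 0.737 in the lungs (3.82 ± 0.53, adjusted p = 0.00041). Every tumour stood more than 10-fold above every lung, with replicate 1 highest. Lrig1, which promotes EGFR degradation, had 10.2, 5.53, 2.39 and 3.55 against 26.5 to 30.9 (-2.36 ± 0.35, adjusted p = 0.00059). Ier3, an immediate early gene, had 15.6 to 45.3 against 102 to 112 (-2.05 ± 0.34, adjusted p = 0.00095). Errfi1, a feedback inhibitor that binds EGFR, had 156, 132, 143 and 429 against 94.9 to 140 and was not called (0.67 ± 0.36, adjusted p = 0.13), but passed with the copies left out (1.20, adjusted p = 0.021).

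Genes of the alveolar transitional state, a keratin-rich stage between type 2 and type 1 cells, went both ways. Of 12, 5 were called higher and 3 lower (median 0.42), beside 5.41% and 48.9% of all genes. With the copies left out 7 were higher and 1 lower. Without tumour replicates 2 and 4, 3 were higher and 3 lower, and under the whole column total the median was -0.77. Krt8 had 561, 479, 334 and 413 in the tumours and 127 to 217 in the lungs (1.26 ± 0.24, adjusted p = 0.0021), and is uncertain for 26.9% shared windows. Krt18, the partner of Krt8 in simple epithelia, had 596, 382, 309 and 370 against 53.02 to 107 (2.28 ± 0.28, adjusted p = 0.0002). Cldn4, a tight junction protein, had 11.5, 30.6, 4.75 and 47.1 against 3.29 to 5.12 (1.79 ± 0.58, adjusted p = 0.026). The keratins separated the tissues, while for Cldn4 tumour replicate 3 lay among the lungs and the call was lost without tumour replicate 2 or 4 or any 1 lung. Sox9, a factor of lung progenitors, rose from 0.256 to 0.940 in the lungs to 12.9, 4.89, 4.29 and 7.82 in the tumours (2.35 ± 0.33, adjusted p = 0.00042). Sox2, a factor of airway cells, had 0.481, 5.82, 0.452 and 1.07 against 9.07 to 15.7 (-2.40 ± 0.47, adjusted p = 0.0024). Nkx2-1, the lineage factor of lung epithelium, had 951, 348, 257 and 493 against 221 to 272 (0.88 ± 0.36, adjusted p = 0.06), not called here but called with the copies left out (1.40, adjusted p = 0.0027).

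Of 15 targets of the tumour suppressor p53, 6 were called higher and 1 lower (median 0.56), beside 5.41% and 48.9% of all genes. All 7 were called under 3 scalings, which is a further test for the lower 1 alone. Under the whole column total their median turned to -0.73, beside -1.84 for all genes. Cdkn1a (chr17:29090976-29100727, plus strand), the cell cycle inhibitor p21, had 463, 344, 331 and 298 in the tumours and 80.7 to 110 in the lungs (1.95 ± 0.20, adjusted p = 8.2e-05). Ccng1, cyclin G1, had 281, 248, 419 and 315 against 84.7 to 100 (1.75 ± 0.20, adjusted p = 0.00015). Gdf15, a stress cytokine, had 24.3, 5.73, 8.45 and 8.99 against 0.918 to 1.41 (2.38 ± 0.38, adjusted p = 0.00084). All 3 separated the tissues. Fas, the death receptor, was the 1 that fell, to 17.2, 7.94, 4.80 and 9 from 48.0 to 51.8 (-2.38 ± 0.32, adjusted p = 0.00036). Of 31 cell cycle genes 16 were lower and none higher (median -0.92, beside -0.78 for all genes), a share near the 48.9% of all genes called lower. With the copies left out 5 were lower, and under 3 scalings 1. That 1 was Top2a, the topoisomerase of dividing cells, with 11.6, 32.3, 11.0 and 11.1 against 40.4 to 57.8 (-1.65 ± 0.34, adjusted p = 0.0032). Replicate 2 was the highest tumour for Top2a, still below every lung.

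Of 12 genes of cholesterol synthesis and uptake 11 were called lower and none higher (median -1.67), 7 of them under 3 scalings. Of 10 of fatty acid synthesis 6 were lower and 1 higher (median -1.12), near the 48.9% of all genes called lower, and 3 were lower under 3 scalings. Sqle, squalene epoxidase, had 11.2, 11.0, 4.53 and 12.3 in the tumours and 51.2 to 60.8 in the lungs (-2.50 ± 0.30, adjusted p = 0.00017). Scd1, the main fatty acid desaturase, had 739, 178, 541 and 773 against 1993 to 3688 (-2.44 ± 0.46, adjusted p = 0.0019). The tissues did not overlap for Sqle or Scd1. Of 16 nuclear genes of oxidative phosphorylation 5 were higher and 5 lower, beside 5.41% and 48.9% of all genes (median -0.29, beside -0.78). With the copies left out 7 were higher and 1 lower (median 0.23), while the mitochondrial genes were all higher. Cox6c, a small subunit of cytochrome oxidase, had 222, 134, 125 and 118 against 61.6 to 80.7 (1.09 ± 0.23, adjusted p = 0.0037), and Sdha, the flavoprotein of complex II, 72.5 to 108 against 216 to 230 (-1.31 ± 0.18, adjusted p = 0.00037). Under the whole column total, Cox6c was at -0.23. Of 17 hypoxia and glycolysis genes 4 were higher and 7 lower, beside 5.41% and 48.9% of all genes. The higher ones were Aldoa (0.59 ± 0.20), Ldha (0.66 ± 0.18), Bnip3 (0.81 ± 0.22) and Ankrd37 (1.41 ± 0.46). Under the whole column total, the stricter scaling for higher calls, Aldoa turned negative. The median of this list went from -0.33 to -1.64 there, beside -0.78 and -1.84 for all genes. Among the lower ones, Vegfa, the vascular growth factor, had 493, 204, 27.7 and 221 against 966 to 1365 (-2.79 ± 0.70, adjusted p = 0.0084). Adm, adrenomedullin, had 0 to 1.71 against 8.26 to 14.1 (-2.83 ± 0.33, adjusted p = 0.00016). Of 17 clock genes 2 were higher and 4 lower, beside 5.41% and 48.9% of all genes. Dbp, an output factor of the clock, had 23.2, 48.6, 23.7 and 18.9 against 4.53 to 7.12 (2.02 ± 0.31, adjusted p = 0.00069), and its opposite-phase activator Arntl 22.5, 2.50, 3.90 and 12.5 against 33.0 to 44.7 (-2.22 ± 0.54, adjusted p = 0.0067). The hour at which each tissue was taken is not given in the sources used here, and its part in these values was not tested.

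Other genes with large differences are on none of these lists. Fbp2 (chr13:62836877-62858422, minus strand), the muscle form of fructose bisphosphatase, had 192, 65.6, 99.2 and 63.6 in the tumours and 0.102 to 0.497 in the lungs (6.16 ± 0.36, adjusted p = 4.5e-06). Nudt14 (chr12:112934291-112942124, minus strand), a hydrolase of UDP-glucose, had 1325, 2486, 3736 and 3041 against 36.4 to 57.3 (5.73 ± 0.32, adjusted p = 3.4e-06). In Nudt14 replicate 3 was the highest tumour and replicate 1 the lowest, as in mt-Co1. A part of mitochondrial RNA in its value was not tested. Epha5, an ephrin receptor, had 57.0, 41.5, 123 and 45.4 against 2.40 to 3.54 (4.01 ± 0.34, adjusted p = 3.2e-05). S100a14, an epithelial calcium-binding protein, had 77.4, 125, 88.5 and 120 against 4.15 to 10.6 (3.57 ± 0.29, adjusted p = 2.6e-05), and Gdpd3, a lysophospholipase, 73.2 to 146 against 6.46 to 8.15 (3.63 ± 0.26, adjusted p = 1.2e-05). Dlk1, an imprinted Notch ligand of fetal tissue, had 238, 11.3, 9.53 and 1.78 against 0 to 0.0898 (4.04 ± 1.07, adjusted p = 0.011), so that 1 tumour held most of it.

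Among the most lowered genes, Nxpe4 had 0, 0.394, 0 and 0.129 in the tumours and 50.3 to 63.05 in the lungs (-5.65 ± 0.23, adjusted p = 5e-07). Glp1r, the receptor for glucagon-like peptide 1, had 3.37, 7.34, 3.62 and 7.82 against 202 to 273 (-5.28 ± 0.28, adjusted p = 2.7e-06). Cyp1a1, a cytochrome induced by the aryl hydrocarbon receptor, had 0.120, 1.99, 0 and 1.99 against 54.2 to 102 (-5.47 ± 0.42, adjusted p = 1.8e-05). Nxpe4 and Cyp1a1 were at or below 1.99 in every tumour, while Glp1r kept a low level in all 4. Spon2, a secreted matrix protein, had 5.91, 0.145, 0 and 0.899 against 78.9 to 123 (-5.79 ± 0.55, adjusted p = 5.1e-05), and Ltbp4, which stores latent TGF-beta in elastic fibres, 50.9, 14.7, 7.31 and 15.8 against 664 to 833 (-5.33 ± 0.46, adjusted p = 3.2e-05). Tumour replicate 1 was the highest tumour in both.

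Whether the tumour-lung difference was particular to CMV-siRE was tested against the same difference under the other circuits, in 1 fit of 24 libraries over 15836 genes. In that fit the median difference was -0.73 under CMV-siRE, -0.88 under CMV-scrR and -0.17 under CMV-GE11-siRE. The mitochondrial share moved with it: tumours given CMV-scrR had 63.1% to 71.5%, and tumours given CMV-GE11-siRE 8.04% to 37.9%. Its part in the differences between circuits was not tested. Both of the following tests use the CMV-siRE libraries, so they are not independent.

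Against CMV-scrR, 172 genes differed (1.09%), 137 of them higher under CMV-siRE (0.865%) and 35 lower (0.221%). Without tumour CMV-siRE replicate 3 the number was 2153, and without lung CMV-scrR replicate 2 it was 56. Saa3, an acute phase protein, had a tumour-lung difference of -4.40 under CMV-siRE and -0.02 under CMV-scrR (-4.39 ± 0.83, adjusted p = 0.0129). Most of that came from the lungs, where the mean of Saa3 was 99.9 under CMV-siRE and 5.95 under CMV-scrR, while the tumour means were 3.80 and 10.35. Ipo13, a nuclear transport receptor, differed by 0.22 under CMV-siRE and -2.55 under CMV-scrR (2.77 ± 0.36, adjusted p = 0.00159). Its tumour means were 81.6 and 11.9 and its lung means 64.6 and 71.4, so the tumours set that difference. Erbb2 differed by 2.41 ± 0.59 between the circuits (adjusted p = 0.0487), with tumour means of 54.7 and 9.73, and Nkx2-1 by 1.88 ± 0.42 (adjusted p = 0.0315), with 512 and 147. Replicates of the CMV-siRE tumours ranged from 9.03 to 102 for Erbb2. Adgre1 differed by -2.04 ± 0.48 (adjusted p = 0.042), Atp13a4, a cation pump, by 4.03 ± 0.99 (adjusted p = 0.0485), and Cacna1c, a calcium channel, by 2.95 ± 0.62 (adjusted p = 0.0204). Alb and Fgg, plasma proteins made by the liver, were at or below 34.4 ppm in all group means and differed by -3.55 ± 0.85 (adjusted p = 0.0452) and -2.55 ± 0.53 (adjusted p = 0.0204).

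**Figure D5:**
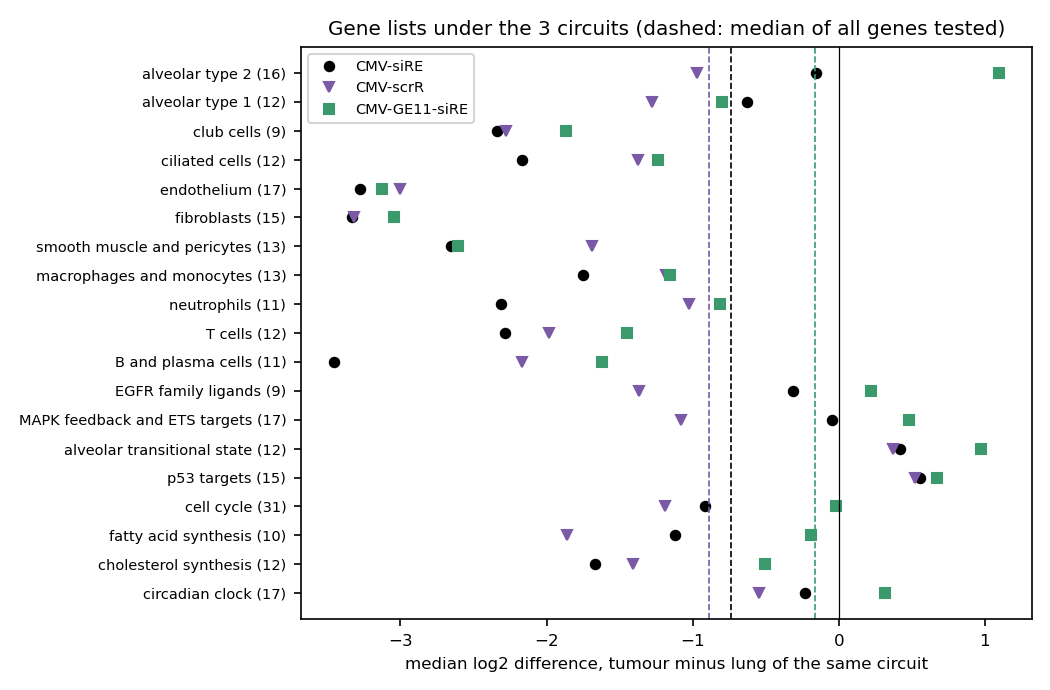
Median log2 difference of tumour minus lung over the tested genes of 19 lists under each of the 3 circuits, from the fit of 24 libraries, with the median of all genes tested under each circuit as a dashed line. Endothelial and fibroblast medians lie between -3.33 and -3.0026 under all 3 circuits, while the alveolar type 2 list lies at -0.16 under CMV-siRE, -0.97 under CMV-scrR and 1.10 under CMV-GE11-siRE.

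Against CMV-GE11-siRE, 1965 genes differed (12.4%), 49 higher under CMV-siRE (0.309%) and 1916 lower (12.1%). That count rested on the scaling, since 37 genes differed with the copies left out of the total and 147, 112 of them higher, under the median ratio. It rested also on single libraries, with 98 without tumour CMV-GE11-siRE replicate 3 and 5251 without tumour CMV-siRE replicate 1. Of 16 type 2 markers 8 differed, and of 12 cholesterol genes 6, in the scaling without mt- genes. Lpcat1 was at -1.05 under CMV-siRE and 1.09 under CMV-GE11-siRE (-2.14 ± 0.48, adjusted p = 0.0232), and Sftpa1 at -0.70 and 1.24 (-1.93 ± 0.56, adjusted p = 0.0362). With the copies left out neither passed (adjusted p = 0.0759 and 0.111). Genes that were higher and still passed then included Erg, an endothelial ETS factor, at -0.76 and -2.90 (2.13 ± 0.48, adjusted p = 0.0233, then 0.028), and Nudt14, at 5.73 and 2.99 (2.75 ± 0.53, adjusted p = 0.0156, then 0.0472). The copy Gm20594 differed likewise, at 6.04 and 3.09 (2.94 ± 0.55, adjusted p = 0.0151). Slc26a4, an anion exchanger, was at 1.55 and 4.92 (-3.37 ± 0.92, adjusted p = 0.0329), and Aldh3b3, an aldehyde dehydrogenase with 12.8% shared windows, at -1.22 and 2.39 (-3.61 ± 0.93, adjusted p = 0.0278).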

How the data were processed

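RNA was extracted with TRIzol and sequenced after an Illumina TruSeq RNA library preparation, per the labels' protocols. The authors deposited 1 table for each tissue of normalised signal values, gene counts divided by size factors, and the submitters' processing notes name DESeq2. Which aligner, counter, build and annotation were used is not given in the sources used here. Of 36047 mouse gene IDs, 35968 carry a GENCODE M21 version. Each column was rescaled to parts per 1000000 (ppm) of its total over mouse genes without mt- symbols, since each table had been scaled by itself. Genes with at least 1 ppm in at least 4 of the 8 libraries were fitted as log2(value + 1) with limma 3.58.1 in R 4.3.3 (trend, Benjamini-Hochberg below 0.05), and differences between circuits in a fit of 24 libraries. In simulated data of 14699 genes, 100 were changed by 1 log2 and 100 by 2 log2. Of these, 26% and 69% were called, and 25 unchanged genes were called falsely. Far more genes were called in the data (7982), so the simulated shares do not give the power of this fit. Copies of mitochondrial genes were found with BLAST 2.17.0. Depth in reads is unknown, because size factors are not given. The column totals of 12.2 to 43.8 times 1000000 in the tumours and 19.5 to 20.0 times 1000000 in the lungs are in scaled units.

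Genes named are the 15 with the largest called difference each way, without overlap between the tissues and with at least 10 ppm in the higher one, leaving out pseudogenes, predicted names and receptor segments. Added to these are up to 4 called members and the 2 most abundant members of each of 48 lists, Egfr, and up to 5 genes each way for each circuit difference. The members and lists were chosen with earlier results of these data known. Alternatives were the pseudocount, the filter, the scaling, a replicate block, array weights, a fit of 24 libraries and leaving out each library. Scaling without the copies and leaving out tumour replicates 2 and 4 were added after the data were seen. Some genes the rule gives are not reported here.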

Additional observations from a re-analysis of the deposited data

Results flagged for a closer look

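Of 281 groups of 4 libraries checked, 30 held a value set apart, its gap to the nearest over 0.829 of the group's range. Chance gives about 1 in 20 for normally distributed values, but the values checked were not log-transformed, so the numbers cannot be set against it. Each value is in parts per 1000000 (ppm) of the non-mitochondrial total.

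In the tumours given CMV-siRE, replicate 1 stood above the others for Sftpc (89070), S100g (320.4), Etv4 (80.19), Cox6c (222.5), Tmem213 (104.4), Dlk1 (238.2), Spon2 (5.905), Cacna1c (130.8) and Aldh3b3 (48.47, uncertain for 12.8% shared windows). Replicate 2 stood above for Foxj1 (54.94), H2-Eb1 (165.8), Cd86 (8.54), Cxcl13 (6.6), Sox2 (5.819), Dbp (48.59) and the cell cycle genes Top2a (32.26), Kif11 (4.839) and Pcna (123.9, uncertain for 19.1% shared windows). Replicate 3 was below the others for Sqle (4.526). Replicate 4 was above for S100a8 (292.4), Errfi1 (428.7) and Fgg (1.349).

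In the lungs, replicate 2 was above the others for the copy Gm29216 (343.4) and below for Cdh5 (876.9) and Myh11 (94.23). Replicate 3 was above for Gm28438 (4.608), Nlrc5 (118.1) and Slc26a4 (72.7) and below for Spon2 (78.92) and Atp13a4 (2.187).

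Some tumour-lung differences differed between circuits by the limma test of the difference itself. Between CMV-siRE and CMV-scrR the log2 difference was -4.39 for Saa3, -3.55 for Alb, -2.55 for Fgg, -2.04 for Adgre1, 1.88 for Nkx2-1, 2.41 for Erbb2, 2.77 for Ipo13, 2.95 for Cacna1c and 4.03 for Atp13a4. Between CMV-siRE and CMV-GE11-siRE it was -3.61 for Aldh3b3, -3.37 for Slc26a4, -2.35 for Vegfa, -2.14 for Lpcat1, -1.93 for Sftpa1, -1.39 for Scd2, -1.18 for Hbegf and -0.83 for Nxpe4. It was positive for mt-Co2 (1.68), Apln (1.84), Erg (2.13), Gm28661 (2.73), Nudt14 (2.75), mt-Co1 (2.91), Gm20594 (2.94) and Gm28437 (3.04).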

How the results depend on the processing

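Scaled by the whole column total, 13199 genes were called between tumour and lung, 174 higher and 13025 lower. The median ratio gave 2524 higher and 3328 lower, and leaving out the mitochondrial copies 1810 and 4239. The replicate block gave 7324 calls, and leaving out 1 library 5721 to 9054. Between CMV-siRE and CMV-scrR, 103 genes differed with no filter, 21 with the whole total, 501 with the median ratio, 294 without the copies, 37 with the replicate block and 56 to 2153 with 1 library left out. Between CMV-siRE and CMV-GE11-siRE the numbers were 828, 11239, 147, 37, 3 and 98 to 5251. Correlations of same-numbered tumour and lung deviations were 0.0832, 0.0084, 0.0103 and 0.0648, and those of other numbers -0.0623 to 0.0528. Values this small do not by themselves settle whether the replicate numbers pair the samples. Ddx3y was at 54.6 and 41.9 ppm in tumour replicates 2 and 4, and lung replicates 2 and 4 had 0.254 and 0.657. Eif2s3y, also Y-linked, had 42.3 and 65.7 in those tumours and 0.0692 and 0 in those lungs. For numbers 2 and 4, tumour and lung therefore do not look like samples of 1 mouse. The difference in mitochondrial share was 53.37 to 62.76 percentage points with 1 library left out, where the smallest exact permutation p is 0.05714. With the whole total, Il33 turned to -0.49, Krt8 to -0.066, Aldoa to -0.74, Cox6c to -0.23, Ndufa4 to -0.41 and Ipo13 to -1.08. That total includes the mitochondrial genes, which take more of each tumour. Of 136 genes followed, 134 kept direction and side of the threshold under the block, 127 without the copies and 123 under the median ratio. The block joins same-numbered tumours and lungs, which the Y-linked values of numbers 2 and 4 do not bear out, so it is a weak check. The cause of the other changes was not tested.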
